A study of Mus musculus with 35 samples.

Results

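Single cells of mouse small-intestinal organoids that were sorted for Reg4 were compared with cells taken at random from whole organoids. The cells were chosen by the sequencing table of their sort and by depth: a well, which holds 1 sorted cell, was kept when it had at least 1500 transcript counts of genes. 641 of the 960 wells in these tables were kept, of which 156 were Reg4-positive cells (75 and 81 in the 2 passages) and 485 were whole organoid cells (276 and 209). All tables of the series together held 1872 wells, of which 1371 passed the same minimum.

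The Reg4-positive cells were grown from a C57BL/6 mouse with the Reg4-dsRed-knock-in allele, in which a red fluorescent protein marks cells that use the Reg4 gene. The whole organoid cells came from organoids of a wild-type C57BL/6 mouse and were not selected. Each group was 1 organoid culture from the crypts of 1 mouse, sampled at 2 passages, so the sort, the knock-in allele and the culture cannot be told apart, and p-values measure only the spread between passages. Both cultures grew in Matrigel with EGF, R-spondin and Noggin. Polyadenylated RNA was counted by CEL-seq, which labels the 3′ end of each transcript by its well and, with 4 random bases, by its molecule.

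Reg4 encodes a secreted lectin-like protein. In the small intestine it is known from enteroendocrine cells, which release hormones from dense granules, and it is also known from other secretory cells. Paneth cells secrete defensins and lysozyme, goblet cells secrete mucin, and enterocytes absorb nutrients and modify drugs and dietary chemicals. The genes described here lie mainly outside the marker genes by which these types are usually recognised.

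Kept wells held 495327 and 1076558 counts in the Reg4-positive passages and 2860636 and 1553804 counts in the whole organoid passages. Median counts per well were 5148 and 5695 in Reg4-positive passages and 7982 and 4608 in whole organoid passages. In the second Reg4-positive passage 3 wells above 100000 counts held 49.3% of all kept counts. The counts over all genes, and those of some lists, are therefore also given without them. Counts given only with all wells can change without them. Spike-in RNA made up 2.85% and 2.72% of counts in kept Reg4-positive wells, against 8.12% and 10.1% in kept whole organoid wells. Summed Paneth markers stood at 194405 and 65134 CPM (counts relative to the scaled total of the library) in Reg4-positive cells and 3219 and 8355 CPM in whole organoid cells. Enteroendocrine markers, with the sorted gene Reg4 among them, summed to 7860 and 29635 CPM in Reg4-positive cells and 4501 and 264 CPM in whole organoid cells. Of these sums Reg4 alone made up 2502 and 7053 CPM in Reg4-positive cells and 1376 and 101 CPM in whole organoid cells. Goblet markers summed to 27374 and 9023 CPM in Reg4-positive cells and 1991 and 5491 CPM in whole organoid cells. Enterocyte markers summed to 4981 and 5547 CPM in Reg4-positive cells and 60824 and 29430 CPM in whole organoid cells. The 2 Reg4-positive passages thus differed in makeup, the first holding more Paneth and goblet marker RNA and the second more enteroendocrine marker RNA. Of the 36 tested Paneth markers 25 rose and 3 fell, of the 40 enterocyte markers 32 fell, and of the 27 enteroendocrine markers 6 rose. Without the wells above 100000 counts 19 Paneth markers rose and 2 fell, 25 enterocyte markers fell and 3 enteroendocrine markers rose. Of the 19 goblet markers 6 rose, of 6 gut hormones 3 rose, of 7 secretory progenitor markers 4 rose, of 18 stem markers 1 rose, and of 3 tuft markers 1 rose and 1 fell. Over all 9700 genes tested 3.2% rose and 4.86% fell. Markers of immune cells summed to 0 and 3.51 CPM in Reg4-positive cells and 4.73 and 6.23 CPM in whole organoid cells. In sums over wells, fewer cells of a type and less RNA per cell cannot be told apart.

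Reg4 itself reached 2502 and 7053 CPM among sorted Reg4-positive cells and 1376 and 101 CPM among whole organoid cells. The 2 groups did not overlap, but the whole organoid passages lay far apart. The log2 fold change (Reg4-positive over whole organoid, as for every fold change here) was 2.69 ± 1.05 (SE) with an adjusted p of 0.175 in edgeR's quasi-likelihood test, so Reg4 did not pass the false discovery rate of 0.05. It passed without the first whole organoid passage, at a log2 fold change of 5.58. Without a filter on low counts its adjusted p was 1.81e-06, in a fit where 764 genes rose and 992 fell. No other alternative called Reg4. Its adjusted p was 0.168 without wells above 100000 counts and 0.0713 with every well thinned to 1500 counts. Reg4 was counted in 62 of 75 wells and 79 of 81 wells of the Reg4-positive passages, and in 210 of 276 wells and 19 of 209 wells of the whole organoid passages. With every well thinned to 1500 counts the shares were 60% and 81.5% of Reg4-positive wells and 32.6% and 3.35% of whole organoid wells. Among the whole organoid wells with the highest enterocyte marker sums, Reg4 was counted in 49 of 70 wells of the first passage (median 5420 counts) and 2 of 54 wells of the second (median 4128.5 counts). Thinned, these shares were 37.1% and 1.85%. In the first whole organoid passage the wells rich in enterocyte markers thus held a Reg4 count about as often as all wells, less often as counted and more often when thinned, so the shares of that passage are not read as shares of cells expressing Reg4.

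The 250 bases before and 50 after the start of 3 genes are shown, since the text turns on each: Reg4, the sorted gene; Bex2, from a cluster on chromosome X in which the tested genes rose; and Mt1, a metallothionein that fell. The sequences are RefSeq's, on GRCm38.p6, read 5′ to 3′ along the gene, from the start that RefSeq's promoter table uses; for Reg4 and Mt1 this start lies inside the outermost bounds annotated for the gene. Capitals mark the forkhead core GTAAACA in Reg4 (chr3:98221906-98222205, plus strand), the E-box CAGATG in Bex2 (chrX:136068187-136068486, minus strand) and the metal response element TGCACNC or TGCGCNC in Mt1 (chr8:94178839-94179138, plus strand).
Reg4: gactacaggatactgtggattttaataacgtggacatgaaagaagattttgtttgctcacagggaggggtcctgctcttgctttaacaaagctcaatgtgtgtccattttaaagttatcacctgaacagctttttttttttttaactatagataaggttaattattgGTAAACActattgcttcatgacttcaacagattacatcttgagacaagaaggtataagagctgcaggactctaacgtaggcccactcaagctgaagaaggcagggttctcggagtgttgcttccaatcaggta
Bex2: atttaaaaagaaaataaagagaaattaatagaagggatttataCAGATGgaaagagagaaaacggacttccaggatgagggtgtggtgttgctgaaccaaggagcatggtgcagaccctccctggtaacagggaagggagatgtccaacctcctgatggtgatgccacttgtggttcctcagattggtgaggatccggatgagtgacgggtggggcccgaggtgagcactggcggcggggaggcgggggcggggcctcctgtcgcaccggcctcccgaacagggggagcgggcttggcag
Mt1: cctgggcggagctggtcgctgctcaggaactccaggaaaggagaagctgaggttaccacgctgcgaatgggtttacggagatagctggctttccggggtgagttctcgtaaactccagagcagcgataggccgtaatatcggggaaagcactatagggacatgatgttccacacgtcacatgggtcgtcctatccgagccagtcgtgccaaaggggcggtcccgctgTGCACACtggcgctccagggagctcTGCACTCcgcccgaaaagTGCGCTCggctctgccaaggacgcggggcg
Motifs were searched on both strands, and the genes and motifs were chosen after expression values and sequences had been seen. Reg4 held 1 forkhead core, which 3.65% of all 32851 promoter windows held. Bex2 held 1 E-box, as did 17.2% of the windows, and 1 TATAAA, as did 13.6%. The Mt1 window held 3 metal response elements, at positions -23, 2 and 20 from that start, and 25.7% of the windows held at least 1. The outermost annotated base of Mt1, 94178883, lies inside this window, so these positions hold only for the start used. No other of these 4 motifs was found in the 3 windows, and bases of these genes outside them were not searched.

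Across 9700 genes tested, 310 rose (3.2%) and 471 fell (4.86%) in Reg4-positive cells, 8.05% together. The counts of called genes in each list are to be read against these shares. A count near them is no result about its list. Of the called genes, 264 risers and 435 fallers lay outside the marker lists, among 9544 such genes tested. The median absolute log2 fold change was 2.87 among those 264 risers and 2.34 among those 435 fallers. In all 699 the passages of the 2 groups did not overlap, which was also true of 54.4% of all tested genes. Averaged per cell, with every well given equal weight, the groups also did not overlap, in the called direction, for the 264 risers and the 435 fallers, against 53.4% of all tested genes in either direction. The 2 Reg4-positive passages lay within 2 times of each other, on CPM + 1, for 173 of the 264 risers and 329 of the 435 fallers.

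**Figure D1:**
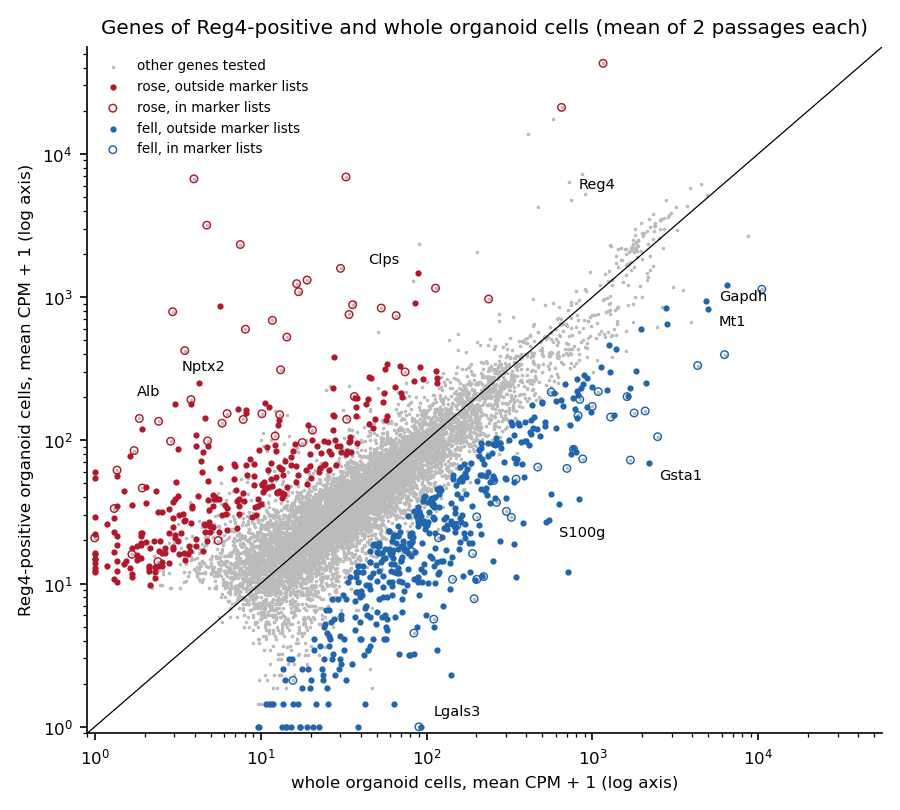
Mean CPM + 1 of the 2 Reg4-positive passages (vertical, log axis) against that of the 2 whole organoid passages (horizontal, log axis), 1 point per tested gene; red genes rose, blue genes fell, open circles are members of the marker lists and the line marks equal levels. The 310 risers lie above the line and the 471 fallers below it, and Reg4 lies above it among the genes not called.

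Without the 3 wells above 100000 counts, 9177 genes were tested, 290 rose (3.16%) and 272 fell (2.96%), 6.12% together. Of the risers outside the marker lists 197 of 264 were called again, and of the fallers 219 of 435. The 3 wells held a median of 25% of the second Reg4-positive passage's counts of the risers, 50% of those of the fallers and 54.7% over all tested genes. With every well thinned to 1500 counts, 4190 genes were tested, 203 rose (4.84%) and 261 fell (6.23%), 11.1% together. Of the 106 risers outside the marker lists that could be tested in thinned wells, 106 kept their direction and 89 were called. Of the 307 such fallers 307 kept their direction and 183 were called.

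Among the genes of largest increase outside the marker lists were 3 rows that RefSeq lists as defensins, Gm21002 (Defa33), Gm10104 (Defa35) and Gm21498 (Defa36), which are near-identical copies of other defensin genes on chromosome 8, so that the division of counts among them is uncertain. Gm21002 stood at 1013 and 710 CPM in Reg4-positive cells and 0 and 9.35 CPM in whole organoid cells (log2 fold change 7.73 ± 1.08, adjusted p = 0.0112). The row of Mir692-1, on chromosome 17, held 18 and 77 counts in Reg4-positive cells and 0 counts in both whole organoid passages, which makes it at least 77.9-fold higher in Reg4-positive cells against a limit of 3 counts over the whole organoid group (adjusted p = 0.00893). CEL-seq counts polyadenylated transcripts placed at that locus, not the mature microRNA.

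Several receptors and secreted proteins followed. Ramp1, which partners the calcitonin receptor-like receptor to make the receptor for calcitonin gene-related peptide, stood at 215 and 24.6 CPM in Reg4-positive cells and 0 and 1.87 CPM in whole organoid cells. Both Reg4-positive passages were higher, the first by more; the ratio of the summed counts, 125 against 3, was 114 (95% counting interval 38.1 to 560.1, adjusted p = 0.0187). Nptx2, a neuronal pentraxin, stood at 79.8 and 419 CPM in Reg4-positive cells and 5.83 and 0.623 CPM in whole organoid cells (6.09 ± 0.94, adjusted p = 0.0132). Here the second Reg4-positive passage was the higher one. Il17re, a receptor subunit for interleukin-17C, stood at 42.1 and 131 CPM in Reg4-positive cells and 4.37 and 0 CPM in whole organoid cells (5.07 ± 0.83, adjusted p = 0.0141). Its call was lost without the second Reg4-positive passage (adjusted p = 0.059) and in DESeq2 (adjusted p = 0.1). Ly6a, the glycolipid-anchored surface protein Sca-1, stood at 22.2 and 140 CPM in Reg4-positive cells and 5.1 and 1.87 CPM in whole organoid cells (4.5 ± 0.82, adjusted p = 0.0177). Without the second Reg4-positive passage the adjusted p of Ly6a was 0.163. Ceacam10, a secreted member of the carcinoembryonic antigen family, stood at 204 and 125.5 CPM in Reg4-positive cells and 11.3 and 1.25 CPM in whole organoid cells (4.54 ± 0.68, adjusted p = 0.0121).

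Several of the largest increases rested on few cells in the first Reg4-positive passage. Nptx2 was counted there in 4 wells, with 55.6% of its counts in 1 of them. Ly6a was counted there in 4 wells, with 50% in 1, and Il17re in 7 wells, with 42.1% in 1. Alb and Olfr558 leaned still more on 1 well. Alb, serum albumin, stood at 79.8 and 275 CPM in Reg4-positive cells and 2.19 and 1.87 CPM in whole organoid cells (6.41 ± 0.71, adjusted p = 0.00893), but in the first Reg4-positive passage 97.2% of its counts came from 1 well, and in the second 44.7%. Olfr558, an olfactory receptor gene, stood at 24.4 and 86.9 CPM in Reg4-positive cells and 0.728 and 0 CPM in whole organoid cells (110 counts against 2, ratio 150.4, 95% counting interval 40.7 to 1258, adjusted p = 0.0104). In the first Reg4-positive passage 90.9% of its counts came from 1 well, while in the second it was counted in 35 wells, and without the second it was not tested. Hpd, an enzyme of tyrosine breakdown, was spread more widely, over 45 and 25 Reg4-positive wells, and stood at 239 and 44.8 CPM in Reg4-positive cells and 2.91 and 4.36 CPM in whole organoid cells (5.24 ± 0.84, adjusted p = 0.0135).

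Among the risers named for a high level, 3 encode secreted digestive or RNA-cutting proteins. Clps, the colipase that assists pancreatic lipase, stood at 2026 and 934 CPM in Reg4-positive cells and 34.2 and 141 CPM in whole organoid cells (4.09 ± 0.73, adjusted p = 0.0158). Rnase4, a secreted ribonuclease, stood at 1228 and 576 CPM in Reg4-positive cells and 101 and 68.5 CPM in whole organoid cells (3.40 ± 0.47, adjusted p = 0.0112). Rnase1, another, stood at 625 and 141 CPM in Reg4-positive cells and 21.1 and 32.4 CPM in whole organoid cells (3.83 ± 0.68, adjusted p = 0.0156). That no whole organoid passage reached either Reg4-positive level was a condition for naming these 3. In all 3 the first Reg4-positive passage was the higher one. Paneth and goblet marker sums were higher in that passage too, and their part in these levels was not tested. Qsox1, which forms disulfide bonds in secreted proteins, stood at 485 and 193 CPM in Reg4-positive cells and 48.1 and 65.4 CPM in whole organoid cells (2.57 ± 0.47, adjusted p = 0.0173).

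**Figure D2:**
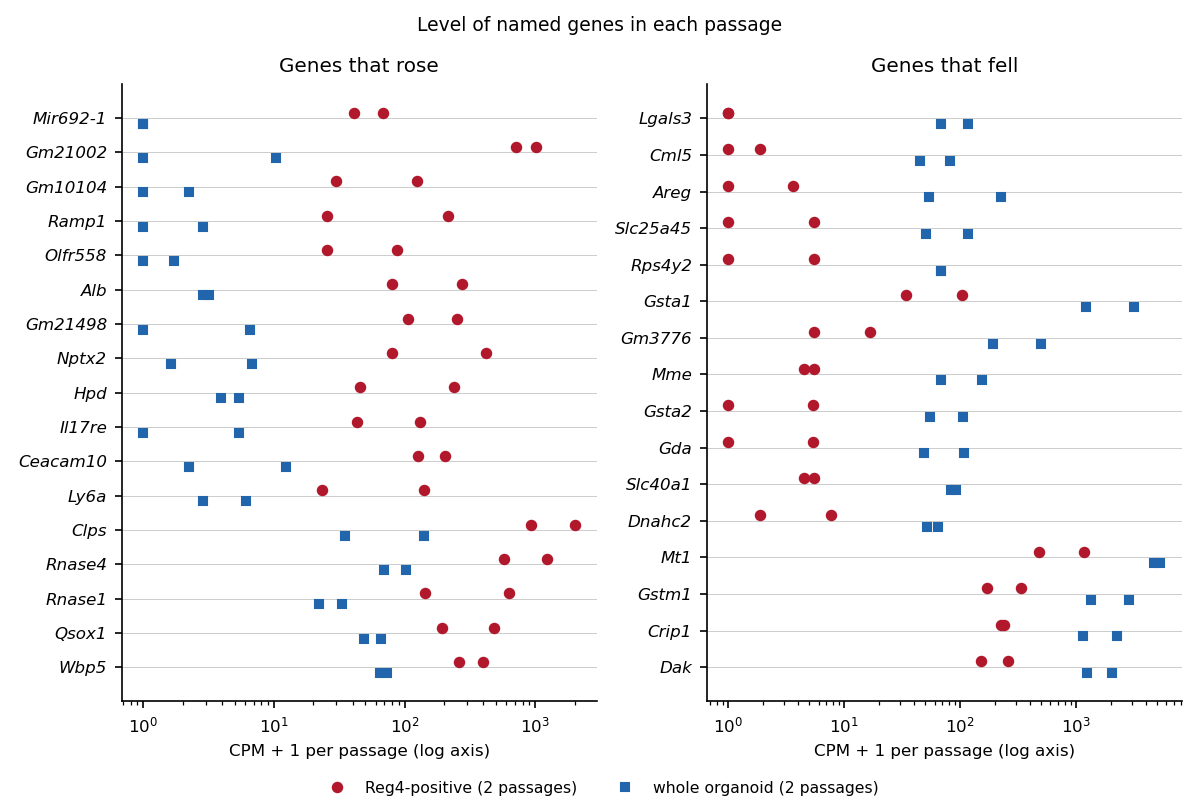
CPM + 1 (log axis) in each passage of the genes named outside the marker lists, risers on the left and fallers on the right, with red circles for the 2 Reg4-positive passages and blue squares for the 2 whole organoid passages. That the 2 groups do not overlap was a condition for naming these genes. Lgals3 stands at 0 CPM in both Reg4-positive passages.

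A cluster of small genes on chromosome X rose together. Bex2, Bex1 and Ngfrap1 (now Bex3), brain-expressed X-linked genes, and Wbp5 (now Tceal9) of the related Tceal family lie between positions 136066565 and 136271978. Bex2 stood at 48.8 and 93.0 CPM in Reg4-positive cells and 5.46 and 1.25 CPM in whole organoid cells (4.27 ± 0.58, adjusted p = 0.0104). Bex1 had 6 and 48 counts in Reg4-positive cells and 0 and 1 count in whole organoid cells, a ratio of 148 (95% counting interval 25.4 to 5941, adjusted p = 0.0125), and was not tested without the second Reg4-positive passage. Ngfrap1 stood at 177 and 365 CPM in Reg4-positive cells and 57.9 and 32.4 CPM in whole organoid cells (2.59 ± 0.45, adjusted p = 0.0151). Wbp5 stood at 262 and 398 CPM in Reg4-positive cells and 72.8 and 64.2 CPM in whole organoid cells (2.27 ± 0.33, adjusted p = 0.0121). In each of the 4 both Reg4-positive passages were above both whole organoid passages, the second by more. That the groups did not overlap was true of all 264 risers outside the marker lists and of 54.4% of all tested genes, so it adds nothing to the calls. Bhlhb9, Bex4, Tceal8 and Tceal5 in the same window had 9 counts or fewer in any passage and were not tested. The window was chosen after these values had been seen.

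Genes of the secretory machinery did not move as a block. Of 31 tested genes of the endoplasmic reticulum translocon and oligosaccharyl transferase none was called, with a median log2 fold change of 0.29 against -0.00299 over all genes. Sec61g, a translocon subunit, stood at 559 and 516 CPM in Reg4-positive cells and 430.5 and 404 CPM in whole organoid cells (0.36 ± 0.31, adjusted p = 0.556). Of 32 chaperones and unfolded protein response genes 4 rose and 1 fell. Ern2, the stress sensor found in mucus-secreting cells, stood at 206 and 48.3 CPM in Reg4-positive cells and 8.38 and 15.0 CPM in whole organoid cells (3.42 ± 0.69, adjusted p = 0.0236). Ero1l, an oxidase that drives disulfide formation, fell to 90.9 and 47.4 CPM in Reg4-positive cells, against 301 and 285 CPM in whole organoid cells (-2.13 ± 0.37, adjusted p = 0.0154). Of 45 Golgi and vesicle traffic genes Tmed6 and Creb3l4 rose and Sec23a fell. Without the deep wells 5 rose and 1 fell. In thinned wells Tmed6 and Sec23a were not called (adjusted p = 0.0706 and 0.0658). Creb3l4, a membrane-bound transcription factor, stood at 106 and 24.6 CPM in Reg4-positive cells and 5.10 and 6.85 CPM in whole organoid cells (3.36 ± 0.70, adjusted p = 0.0265), with an adjusted p of 0.0894 without the first Reg4-positive passage.

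Of 23 tested genes of regulated exocytosis, the release of stored granules on a signal, 4 rose and none fell, with a median of 1.38. Ptprn2, a dense-core granule membrane protein, stood at 157 and 197 CPM in Reg4-positive cells and 60.5 and 23.7 CPM in whole organoid cells (2.05 ± 0.45, adjusted p = 0.0301). Its adjusted p was 0.0679 without the second Reg4-positive passage and 0.0829 without the second whole organoid passage. Unc13b and Cplx1, which prime and clamp vesicles, rose at adjusted p of 0.0471 and 0.046, and each lost its call under 6 alternatives. The list of microtubules and the neuronal cytoskeleton also held the 3 Bex genes above, and of its 24 tested members 4 rose and none fell. Apart from these Bex genes only Kif1a rose, a motor that carries dense-core vesicles. The count of 4 is therefore no result about cytoskeletal genes. Kif1a stood at 15.5 and 21.9 CPM in Reg4-positive cells and 2.55 and 0 CPM in whole organoid cells (3.59 ± 0.81, adjusted p = 0.0346), with an adjusted p of 0.0741 without the first Reg4-positive passage and 0.0603 without the second whole organoid passage.

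Of 53 tested transcription regulators 3 rose and 3 fell, where 3.2% of all 9700 genes rose and 4.86% fell. These counts are too small to be read as a result about the list. Sox9, which Paneth and progenitor cells use, stood at 386 and 263 CPM in Reg4-positive cells and 89.2 and 91.6 CPM in whole organoid cells (1.84 ± 0.32, adjusted p = 0.0151), with an adjusted p of 0.068 without the first whole organoid passage. Foxa2, a forkhead factor, stood at 75.4 and 91.3 CPM in Reg4-positive cells and 16.7 and 12.5 CPM in whole organoid cells (2.50 ± 0.34, adjusted p = 0.0104). Foxa1, its relative, stood at 118 and 76.3 CPM in Reg4-positive cells and 31.0 and 34.9 CPM in whole organoid cells (1.53 ± 0.34, adjusted p = 0.0332). The call of Foxa1 was lost without the first Reg4-positive passage (0.0908) and without either whole organoid passage (0.17 without the first and 0.0826 without the second). Creb3l3, a regulator of lipid genes in liver and gut, fell to 24.4 and 26.3 CPM in Reg4-positive cells, against 439 and 320 CPM in whole organoid cells (-3.89 ± 0.36, adjusted p = 0.00883). Hnf4g and Ppara, nuclear receptors of absorptive and fatty acid metabolism, also fell, by 2.44 ± 0.45 and 2.32 ± 0.43 on the log2 scale (adjusted p = 0.0187 and 0.0191). In wells thinned to 1500 counts the adjusted p was 0.157 for Hnf4g and 0.0502 for Ppara. Without the second Reg4-positive passage both also lost their calls, at log2 fold changes of -2.01 and -2.18. Ppara lost its call without the first whole organoid passage too, at -1.82.

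Of 13 tested G protein-coupled receptors 3 rose, Olfr558 among them, and 1 fell. Ffar4, a receptor for long-chain fatty acids, stood at 48.8 and 32.5 CPM in Reg4-positive cells and 3.28 and 4.98 CPM in whole organoid cells (3.28 ± 0.49, adjusted p = 0.0121). Adra2a, an adrenergic receptor, stood at 88.7 and 36.0 CPM in Reg4-positive cells and 8.38 and 16.2 CPM in whole organoid cells (2.30 ± 0.53, adjusted p = 0.0376). The adjusted p of Adra2a was 0.0507 without the deep wells, 0.119 without the first Reg4-positive passage and 0.0897 without the first whole organoid passage. Vipr1, a receptor for vasoactive intestinal peptide, fell to 17.7 and 19.3 CPM in Reg4-positive cells, against 93.6 and 67.9 CPM in whole organoid cells (-2.11 ± 0.36, adjusted p = 0.0151). Of 27 ion channels 1 rose, Kcnma1, a calcium-activated potassium channel, with 9 and 13 counts in Reg4-positive cells and 0 and 1 count in whole organoid cells (ratio 60.2, 95% counting interval 9.73 to 2484, adjusted p = 0.0151, and 0.0881 without the first whole organoid passage); it was not tested without either Reg4-positive passage. Clic5 and Clcn2, chloride channel family members, fell at adjusted p of 0.0191 and 0.0289. Each lost its call without the deep wells (0.0933 and 0.0563) and in thinned wells (0.0781 and 0.0743). Clic5 also lost it without the first Reg4-positive passage (0.0536), and Clcn2 without the second (0.12) and without the first whole organoid passage (0.0748).

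**Figure D3:**
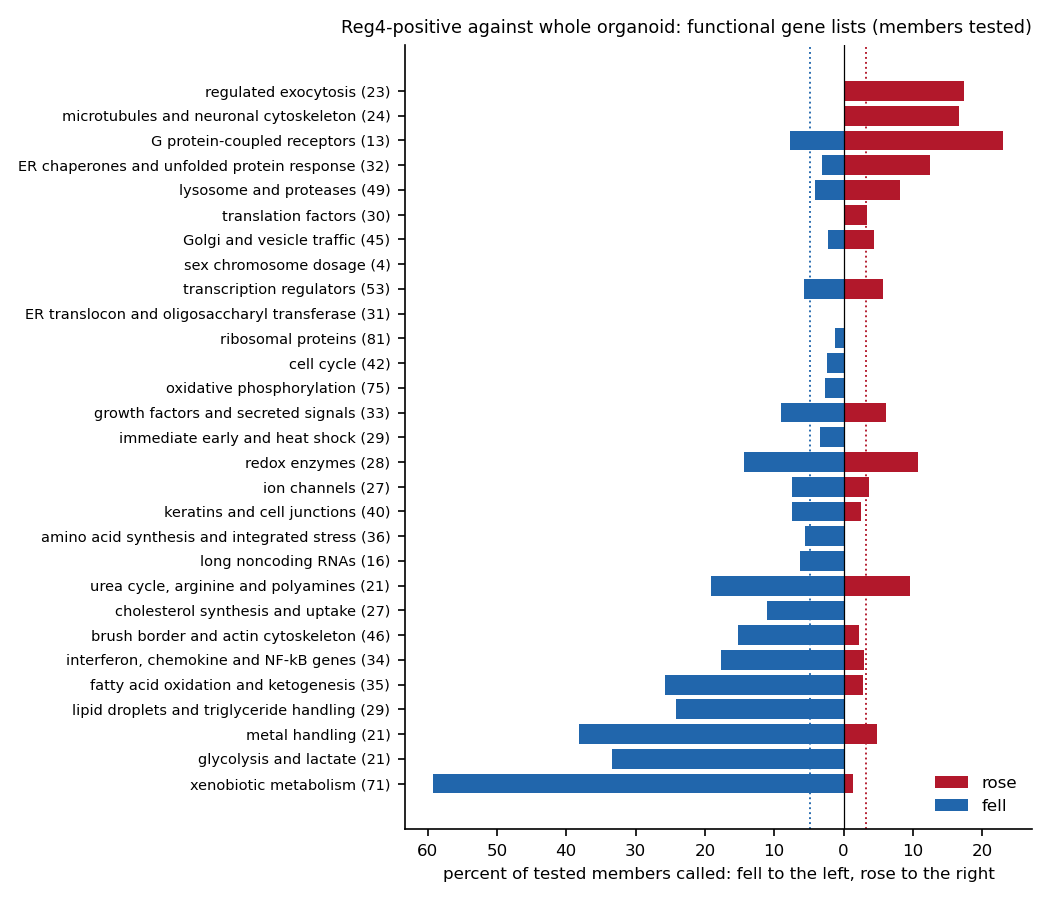
Percent of tested members of each functional gene list that rose (red, to the right) or fell (blue, to the left) in Reg4-positive cells, with the number tested in brackets; dotted lines mark 3.2% rising and 4.86% falling over all 9700 genes. Xenobiotic metabolism has 42 of 71 members falling, and regulated exocytosis has 4 of 23 rising and none falling.

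Of the functional lists, that of xenobiotic metabolism held the most decreases. Of 71 tested genes of this kind, which modify drugs and dietary chemicals, 42 fell and 1 rose, with a median of -1.98. Without the deep wells 29 fell and 2 rose. Gsta1, a glutathione transferase, fell to 33.2 and 103 CPM in Reg4-positive cells, against 3163 and 1209 CPM in whole organoid cells (-4.96 ± 0.72, adjusted p = 0.0121). In the Reg4-positive passages 73.3% and 53.8% of Gsta1 counts came from 1 well each. Gstm1, of another class of these enzymes, fell to 171 and 331 CPM in Reg4-positive cells, against 2871 and 1330 CPM in whole organoid cells (-3.06 ± 0.54, adjusted p = 0.0158). Ces2e, a carboxylesterase, fell to 257 and 191 CPM in Reg4-positive cells, against 1421 and 1041 CPM in whole organoid cells (-2.46 ± 0.39, adjusted p = 0.0133). Cyp3a11, a cytochrome P450, fell to 15.5 and 36.0 CPM in Reg4-positive cells, against 679 and 376 CPM in whole organoid cells (-4.25 ± 0.50, adjusted p = 0.00893). Gsta2 and the Gsta-like row Gm3776 fell as well, and counts may be divided among near-identical copies in the Gsta, Gstm, Cyp2c and Ugt2b families. The riser was Fmo1, a flavin monooxygenase, with 40 counts in Reg4-positive cells against 3 in whole organoid cells (adjusted p = 0.0219), and without the second Reg4-positive passage it was not tested. Enterocyte markers fell with this list and those that follow, at the sums given above, and their part in it was not tested.

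Of 21 glycolysis and lactate genes 7 fell and none rose, with a median of -1.33, and 4 fell without the deep wells. Gpi1, glucose phosphate isomerase, fell to 319 and 276 CPM in Reg4-positive cells, against 1419 and 1124 CPM in whole organoid cells (-2.10 ± 0.36, adjusted p = 0.0151). Gapdh, which is often used as a constant gene, fell to 782 and 1089 CPM in Reg4-positive cells, against 5399 and 4301 CPM in whole organoid cells (-2.37 ± 0.45, adjusted p = 0.0203). Without the deep wells Gapdh had an adjusted p of 0.0699. Slc16a3, a lactate exporter, fell by 2.58 ± 0.38 on the log2 scale (adjusted p = 0.0121). Of 75 oxidative phosphorylation genes Sdhb and Sdhd, subunits of succinate dehydrogenase, fell, and none rose, with a median of -0.78. Sdhb, at an adjusted p of 0.0407, lost its call without either Reg4-positive passage (0.138 without the first and 0.0552 without the second) and without the first whole organoid passage (0.205). Sdhd, at 0.0254, lost it without the second Reg4-positive passage (0.0719) and without the first whole organoid passage (0.0513).

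Of 35 genes of fatty acid oxidation and ketogenesis 9 fell and 1 rose, and without the deep wells 3 fell. Acsl5, which activates fatty acids, fell to 113 and 152 CPM in Reg4-positive cells, against 641 and 388 CPM in whole organoid cells (-1.95 ± 0.38, adjusted p = 0.0206). Its adjusted p was 0.0718 without the first Reg4-positive passage and 0.0822 without the first whole organoid passage. Of 29 genes of lipid droplets and triglyceride handling 7 fell and none rose. Mogat2, which rebuilds triglyceride from absorbed monoacylglycerol, fell to 6.65 and 14 CPM in Reg4-positive cells, against 273 and 157 CPM in whole organoid cells (-4.23 ± 0.48, adjusted p = 0.00893). Scd1, a fatty acid desaturase, fell to 13.3 and 22.8 CPM in Reg4-positive cells, against 162 and 196 CPM in whole organoid cells (-3.22 ± 0.38, adjusted p = 0.00893). Of 27 cholesterol genes 3 fell and none rose.

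Of 21 metal handling genes 8 fell and 1 rose, with a median of -1.23. Mt1, a metal-binding metallothionein with a sequence window shown above, fell to 479 and 1159 CPM in Reg4-positive cells, against 5320 and 4689 CPM in whole organoid cells (-2.61 ± 0.54, adjusted p = 0.0265). Its relative Mt2 stood at 219 and 1126 CPM in Reg4-positive cells and 4098 and 3762 CPM in whole organoid cells, and did not pass the test (-2.54 ± 0.71, adjusted p = 0.0687). The iron exporter ferroportin, Slc40a1, fell to 4.43 and 3.51 CPM in Reg4-positive cells, against 91.4 and 81.6 CPM in whole organoid cells (-4.48 ± 0.44, adjusted p = 0.00883). The iron importer Slc11a2 fell to 19.9 and 16.7 CPM in Reg4-positive cells, against 217 and 156 CPM in whole organoid cells (-3.38 ± 0.37, adjusted p = 0.00893). Iron entry and exit genes were thus both lower in both Reg4-positive passages, as were all 435 fallers outside the marker lists. Slc39a8, a zinc and manganese importer, was the riser, at 122 and 88.6 CPM in Reg4-positive cells and 33.9 and 33.0 CPM in whole organoid cells (1.63 ± 0.32, adjusted p = 0.0225). The adjusted p of Slc39a8 was 0.0527 without the first Reg4-positive passage, and 0.102 and 0.0825 without the first and the second whole organoid passage. Of 28 redox enzymes 3 rose, among them Qsox1, and 4 fell. Of 21 genes of the urea cycle, arginine and polyamines 2 rose and 4 fell. Ass1, argininosuccinate synthase, stood at 15.5 and 26.3 CPM in Reg4-positive cells and 2.19 and 1.87 CPM in whole organoid cells (3.36 ± 0.57, adjusted p = 0.0149), with an adjusted p of 0.182 without the second Reg4-positive passage. Maoa, a monoamine oxidase, fell to 55.4 and 79.9 CPM in Reg4-positive cells, against 478 and 270 CPM in whole organoid cells (-2.44 ± 0.40, adjusted p = 0.0139).

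Outside metabolism, the largest decrease by fitted change among genes outside the marker lists was that of Lgals3, galectin-3, a sugar-binding protein. Lgals3 had 0 counts in both Reg4-positive passages and 186 and 187 counts in the whole organoid passages, which makes it at least 45.5-fold lower in Reg4-positive cells against a limit of 3 counts over the group (adjusted p = 0.00893). Areg, a ligand of the EGF receptor, had 0 and 3 counts in Reg4-positive cells and 144 and 362 counts in whole organoid cells (adjusted p = 0.0141). The ratio of the summed counts, whole organoid over Reg4-positive, was 61.7 (95% counting interval 21.0 to 300.0). Another EGF receptor ligand, Hbegf, fell to 33.2 and 9.65 CPM in Reg4-positive cells, against 109 and 227 CPM in whole organoid cells (-3.16 ± 0.61, adjusted p = 0.0206), with an adjusted p of 0.0566 without the deep wells and 0.0552 without the second Reg4-positive passage. Of 33 growth factors and secreted signals 3 fell and 2 rose. Gas6, a ligand of TAM receptor kinases, rose with 49 and 10 counts in Reg4-positive cells and 0 in both whole organoid passages, at least 53.8-fold higher (adjusted p = 0.0297). All 10 counts of Gas6 in the second Reg4-positive passage lay in deep wells (100%), and without these wells, or without the first Reg4-positive passage, it was not tested. Wnt3, a Wnt ligand made by Paneth cells, stood at 44.3 and 24.6 CPM in Reg4-positive cells and 5.83 and 4.36 CPM in whole organoid cells (2.65 ± 0.51, adjusted p = 0.0204), with an adjusted p of 0.0746 without the first Reg4-positive passage.

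Several enzymes and carriers of other kinds were among the largest or most abundant decreases. Mme, the membrane peptidase neprilysin, fell to 4.43 and 3.51 CPM in Reg4-positive cells, against 154 and 67.3 CPM in whole organoid cells (-4.84 ± 0.62, adjusted p = 0.0104). Gda, guanine deaminase, fell to 0 and 4.39 CPM in Reg4-positive cells, against 106 and 48.0 CPM in whole organoid cells (-4.64 ± 0.73, adjusted p = 0.0133). Slc25a45, a mitochondrial carrier family member, had 2 and 0 counts in Reg4-positive cells, against 116 and 49.2 CPM in whole organoid cells. Both Reg4-positive passages of these 3 genes were near 0. Crip1, a small LIM-domain protein known from the intestine, fell to 222 and 238 CPM in Reg4-positive cells, against 2246 and 1138 CPM in whole organoid cells (-2.88 ± 0.45, adjusted p = 0.0133). Dak (now Tkfc), a kinase of fructose breakdown, fell to 151 and 255 CPM in Reg4-positive cells, against 2032 and 1232 CPM in whole organoid cells (-3 ± 0.46, adjusted p = 0.0131). Crip1 and Dak kept levels above 100 CPM in both Reg4-positive passages. For Dak, however, 48.5% and 34.4% of the counts in these passages came from 1 well each, and it was counted in 18 and 28 wells.

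S100g, the calcium-binding protein calbindin-D9k, fell to 24.4 and 29.0 CPM in Reg4-positive cells, against 597 and 491 CPM in whole organoid cells (-4.33 ± 0.36, adjusted p = 0.00883). It was 1 of 7 fallers among 46 genes of the brush border and actin cytoskeleton. The 1 riser there was Lcp1, the actin bundler L-plastin, at 95.3 and 99.2 CPM in Reg4-positive cells and 21.5 and 24.9 CPM in whole organoid cells (2.07 ± 0.31, adjusted p = 0.0125). Of 40 keratin and junction genes 1 rose, Krt7, and 3 fell, among them Lgals3. Without the deep wells 1 rose and 1 fell. Krt7, a keratin of simple epithelia, stood at 288 and 319 CPM in Reg4-positive cells and 89.2 and 138 CPM in whole organoid cells (1.42 ± 0.33, adjusted p = 0.0355). Krt7 lost its call without any 1 of 3 passages, with adjusted p of 0.055 and 0.0781 without the first and second Reg4-positive passage and 0.29 without the first whole organoid passage. Of 34 interferon, chemokine and NF-kB genes 6 fell and 1 rose. Without the deep wells 3 fell and 1 rose. Ccl20, a chemokine, fell to 6.65 and 14 CPM in Reg4-positive cells, against 44.8 and 62.3 CPM in whole organoid cells (-2.21 ± 0.44, adjusted p = 0.0222), with an adjusted p of 0.0536 without the first Reg4-positive passage and 0.0657 without wells 49 to 96 of whole organoid plate IV, which are of doubtful origin. The riser was Cfi, complement factor I, at 57.6 and 13.2 CPM in Reg4-positive cells and 1.46 and 0.623 CPM in whole organoid cells (4.73 ± 0.90, adjusted p = 0.0198), and its adjusted p was 0.0992 without the first Reg4-positive passage. Of 49 lysosome and protease genes 4 rose and 2 fell.

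Lists of general cell functions had few calls. Over all 9700 genes 3.2% rose and 4.86% fell, and in the shorter lists below 1 call lies near these shares. Of 81 ribosomal protein rows 1 fell, Rps4y2, which RefSeq names Rps4l and annotates as a pseudogene, and none rose. In thinned wells Rps4y2 was not called (adjusted p = 0.0664). Of 42 cell cycle genes, 29 immediate early and heat shock genes and 16 long noncoding RNAs 1 fell in each list. Of 30 genes on the list of translation factors 1 rose, Nap1l1. Without the deep wells no member of the translation factor and long noncoding RNA lists was called, and 1 cell cycle gene rose and none fell. Of 36 genes of amino acid synthesis and the integrated stress response 2 fell, among them Cth, which makes cysteine. Cth fell to 39.9 and 42.1 CPM in Reg4-positive cells, against 201 and 141 CPM in whole organoid cells (-2.05 ± 0.34, adjusted p = 0.0141). The 4 Y-linked genes tested, Ddx3y among them, were counted in all 4 passages and none was called, and Xist had 0 counts in each.

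Within the Reg4-positive wells, risers were set against the summed markers of enteroendocrine (without Reg4), Paneth and goblet cells over wells thinned to 1500 counts. These are correlations across cells that share a library, given as a description. Of the 264 risers outside the marker lists 21 had a Spearman rho of at least 0.3 with the enteroendocrine sum in both passages (7.95%, against 0.576% of all 9544 genes). With the goblet sum there were 5 (1.89%), namely Clps, Ern2, Qsox1, Ramp1 and Rnase1, against 0.0629% of all 9544 genes. With the Paneth sum there were 4 (1.52%), namely Clps, Gm21002, Gm21498 and Rnase1. Over all 9544 genes these same 4 were the only ones (0.0419%). Gm21002 and Gm21498 are defensin rows and the Paneth sum holds other defensins, so their rho is no independent result. The 9544 genes were not matched to the risers for counts in Reg4-positive wells, so the shares are not a like comparison. Fallers are not described this way, since most had few counts in Reg4-positive wells. Nptx2 had rho of 0.391 and 0.760 with the enteroendocrine sum and -0.243 and -0.306 with the goblet sum. Ngfrap1 had rho of 0.578 and 0.699 with the enteroendocrine sum. Il17re, Ly6a, Ptprn2, Cplx1, Kif1a and Ctsl also went with the enteroendocrine sum. Several of these rest on few wells of the first passage. There 2.67% of thinned wells held Cplx1 and 2.67% held Kif1a, both with a rho of 0.314. Nptx2 and Ly6a were held by 4% of thinned wells each and Il17re by 6.67%. Ramp1 had rho of 0.488 and 0.393 with the goblet sum and -0.250 and -0.345 with the enteroendocrine sum. Its signs were thus opposite to those of Nptx2.

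**Figure D4:**
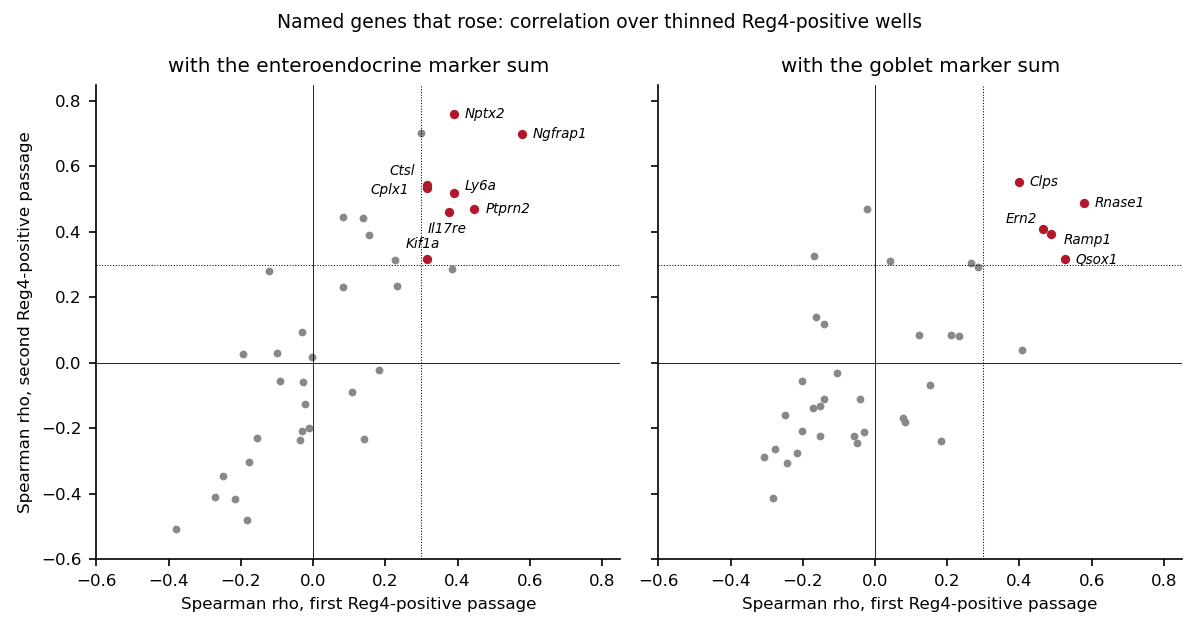
Spearman rho over thinned Reg4-positive wells of named risers that had counts in thinned wells of both passages, in the first (horizontal) and second (vertical) Reg4-positive passage, with the enteroendocrine marker sum on the left and the goblet marker sum on the right; dotted lines mark 0.3. Nptx2 and Ngfrap1 lie high and to the right in the left plot, and Ramp1, Rnase1, Clps, Ern2 and Qsox1 lie beyond both lines in the right plot.

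Of the 21, 5 more genes are given here, singled out after their values were seen. Pam, which amidates peptide hormones, stood at 66.5 and 189 CPM in Reg4-positive cells and 22.9 and 13.7 CPM in whole organoid cells (2.81 ± 0.52, adjusted p = 0.0188), with an adjusted p of 0.0571 without the second Reg4-positive passage. Cartpt, the precursor of the CART peptide, stood at 26.6 and 41.2 CPM in Reg4-positive cells and 0.728 and 0 CPM in whole organoid cells (6.03 ± 0.74, adjusted p = 0.0098), with over 50% of its Reg4-positive counts in 1 well and no test without the second Reg4-positive passage. Rgs2, a brake on G protein signalling, stood at 84.2 and 237 CPM in Reg4-positive cells and 8.74 and 5.61 CPM in whole organoid cells (4.46 ± 0.56, adjusted p = 0.0104). Fxyd6, a regulator of the sodium pump, stood at 115 and 194 CPM in Reg4-positive cells and 13.1 and 1.25 CPM in whole organoid cells (4.29 ± 0.70, adjusted p = 0.0141). In these 4 genes, as in all 264 risers outside the marker lists, both Reg4-positive passages were above both whole organoid passages. Vim, the intermediate filament vimentin and a stromal marker, stood at 55.4 and 307 CPM in Reg4-positive cells and 16 and 3.12 CPM in whole organoid cells (4.18 ± 0.86, adjusted p = 0.0258). Vim lost its call without the deep wells (adjusted p = 0.0568) and without the second Reg4-positive passage (0.0984). It was the only gene tested of 14 on the stromal list, which summed to 55.4 and 308 CPM in Reg4-positive cells and 18.9 and 33.6 CPM in whole organoid cells.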

How the data were processed

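Single-cell CEL-seq tables of Reg4-positive and whole organoid cells were used, 2 passages each. The authors deposited estimated counts of transcripts per gene and well, corrected for repeated draws of 256 molecular barcodes: inverting that correction made 1869196 of 1869201 nonzero values whole (tolerance 1e-06). The submitters' processing notes list BWA 0.6.2-r126 and mm10 (GRCm38); the sources used here do not give counting rules or strand. Tables held 23538 gene rows and 92 spike-ins. Per the labels each Reg4-positive replicate comprises 3 samples, but the tables hold 1 and 2 plates.

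Estimated counts were rounded per gene and well (largest shift 0.495) and summed over wells with at least 1500 counts, leaving out spike-ins and dsRed; no kept wells were identical. Testing used edgeR 4.0.16 under R 4.3.3 (quasi-likelihood test, TMM, filterByExpr, Benjamini-Hochberg adjustment, threshold 0.05) on the 4 libraries with no block, and was checked on simulated data. Genes said to have risen or fallen passed it. Each SE is the absolute log2 fold change over the square root of F. Counting intervals and the limit of 3 counts used for a 0 describe sampling of molecules only.

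The wells, gene lists and naming rule were chosen with earlier results of these data known. The rule took Reg4, then, outside the marker lists, genes called with and without wells above 100000 counts, not overlapping and averaging 50 CPM or more in the higher group (the 12 largest changes and 6 highest levels in each direction), then up to 4 called members of each functional list by level. Ass1, Ccl20, Cfi, Cyp3a11, Fmo1, Foxa2, Lcp1, Ppara, Slc11a2, Slc16a3, Slc39a8 and Wnt3, called list members beyond that number, were added after their values were seen. Coordinates and promoters are RefSeq's (GRCm38.p6). Alternatives covered DESeq2 1.42.0, size factors, filters, thinning, deep wells, plates, single passages and a replicate block. The lost calls given for a gene are not always all of them. A few genes that the rule names are not reported here.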

Additional observations from a re-analysis of the deposited data

Results flagged for a closer look

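In data outside the comparison, the table of the first Reg4-positive passage has an entry for the dsRed reporter, which the other 3 tables used here do not list. It held 63 counts, above the limit of 3 that a count of 0 allows, in 31 of 75 kept wells (41.3%, exact 95% interval 30.1 to 53.3%). Reg4 was counted in 30 of these 31 wells and in 32 of the other 44 wells. The wells with a dsRed count had a median of 5816 counts and the other wells 4551.5 counts.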

How the results depend on the processing

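The 310 increases and 471 decreases were 311 and 447 with RLE size factors, 297 and 467 in DESeq2, and 260 and 416 in wells of at least 3000 counts. Without wells 49 to 96 of plate IV of the whole organoid, of doubtful origin, they were 257 and 451, and Adra2a, Krt7 and Ccl20 lost their calls (adjusted p = 0.0609, 0.0546 and 0.0657). They were 764 and 992 without a filter on low counts, and 203 and 261 with wells thinned to 1500 counts, where fewer genes were tested. Without wells above 100000 counts 290 rose and 272 fell, and the share of calls that were increases was 51.6%, against 39.7% with all wells. Thinned and without these wells, an alternative chosen after seeing the data, 218 rose and 272 fell. With single passages left out increases ranged from 258 to 312 and decreases from 270 to 492, the fewest without the second Reg4-positive passage; decreases numbered 289 without the first whole organoid passage. A lone passage was then assumed to vary like the other group. Why the counts of decreases moved was not tested. Of the genes that the naming rule took, 20 of 41 that rose and 28 of 72 that fell kept their call under every alternative that could test them, as did 6 of 12 risers and 3 of 5 fallers named beyond the rule; none reversed. Replicate numbers mark separate passages and are not stated to pair the groups; deviations of same-numbered passages correlated at -0.0987 over 9700 genes. With a replicate block 253 genes rose and 413 fell, and of the genes given in the text Mt1, Gapdh, Sdhb, Cplx1, Kif1a and Vim lost their calls (adjusted p = 0.0722, 0.0864, 0.0743, 0.0797, 0.0539 and 0.0552). Depth limits genes of few counts, such as Bex1 and Kcnma1, and deep wells carry much of the second Reg4-positive passage.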
